A study of Mus musculus with 32 samples.

Results

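The transcripts of 10 genes that build or assist 2 families of histone methyltransferase were examined in mouse embryonic stem cells (mESCs). The genes were chosen by symbol, and each of the 10 was listed once among the 24028 symbols of the RNA-seq tables. Of them, 7 belong to complexes that methylate lysine 4 of histone H3 (Setd1a, Setd1b, Wdr5, Ash2l, Rbbp5, Dpy30 and Men1), and the other 3 (Setd2, Nsd1 and Ash1l) encode enzymes that methylate lysine 36. The study compared WT mESCs with Eed-/- mESCs, and RNA-seq was made from 1 library of each genotype. EED is a subunit of Polycomb repressive complex 2 (PRC2), the enzyme complex that methylates lysine 27 of histone H3. Both RNA-seq libraries are labelled strain TT2, a mESC line, whereas Eed-/- samples of other assays are labelled l7Rn5-3354SB. Both cultures grew on gelatin-coated plates, in medium with serum and LIF, a cytokine that keeps mESCs undifferentiated. The mutation carried by the Eed-/- cells of the RNA-seq is not given in the sources used here. Because each genotype had a single library, the spread between cultures is unknown and p-values are not given.

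Methylation of H3K4 marks active promoters and enhancers, and in mammals much of it is laid down by SET-domain enzymes that work only weakly alone. Each of these enzymes sits in a complex of the COMPASS type, around a shared core of WDR5, RBBP5, ASH2L and DPY30. Methylation of H3K36 spreads over the bodies of transcribed genes, where SETD2 makes the trimethylated form and the NSD enzymes and ASH1L make the dimethylated form. Both marks counter PRC2 on the histone tails that carry them, and ASH1L and the COMPASS enzymes are counted among the Trithorax group, the historic opponents of Polycomb in keeping developmental genes active.

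The deposited values are FPKM, fragment numbers divided by transcript length and by sequencing depth, so levels can be compared between genes per length. The files hold no counts, but the steps between low values gave a depth of about 7210000 fragments in the WT library, against 6460000 in the other. Transcripts of Eed itself had a WT level of 63.0 FPKM, against 70.9 in the library labelled Eed-/-, so the transcript was not reduced, and the wording "library labelled Eed-/-" is kept wherever a direction is drawn. Whether the protein was lost cannot be read from RNA, and the study took the loss of Eed from western blots and ChIP-seq of H3K27me3, which were not analysed here. All 8 pluripotency genes looked up were abundant, at 47.0 to 393 in WT and 26.9 to 373 in the library labelled Eed-/-. They were not all level between the libraries, as 4 were higher and 4 lower after normalization. The largest differences were those of Zfp42 (131 in WT, against 272), Nanog (114 and 176) and Dppa4 (47.0 and 26.9). The 7 fibroblast markers summed to 1.73 and 7.22, most of it Thy1 (0.976 and 6.97), with 2 markers listed at 0 in WT and 3 in the other library, and the 6 primitive endoderm markers to 1.4998 and 3.98. Trophoblast markers summed to 42.1 and 12.5, of which Tfap2c was 39.8 and 9.21, while Eomes was at 0.478 and 1.93, and neural markers to 105 and 86.9, most of it Tubb3; the part of these markers in the results was not tested. Genes of chromosomes 1 and 8 were lower as a group in the library labelled Eed-/-, and those of chromosome X were higher. The 6 tested genes of chromosome Y were higher too, with a median change of 1.77 in normalized log2(FPKM + 1). In bulk RNA, fewer cells of a type and less RNA per cell cannot be told apart.

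All 10 genes were expressed in both libraries, at widely different levels. Levels are deposited FPKM unless called normalized, and where a pair is given WT comes first. Ash2l led in WT with an FPKM of 180, followed by Dpy30 at 133, Wdr5 at 53.2, Nsd1 at 30.4, Rbbp5 at 28.7, Men1 at 22.6 and Setd2 at 19.3. The lowest were Setd1a at 5.85, Ash1l at 3.79 and Setd1b at 1.10. In the library labelled Eed-/- the order was Dpy30 at 141, Wdr5 at 62.1, Ash2l at 51.5, Nsd1 at 33.0, Men1 at 26.5, Setd2 at 19.9, Rbbp5 at 19.6, Setd1a at 4.88, Ash1l at 4.46 and Setd1b at 1.77. The core subunits that every COMPASS complex shares were thus well above both SETD1 enzymes, and the 3 lowest places were held by the same genes in both libraries. Ash2l moved from the first place to the third, and Rbbp5 from the fifth to the seventh, nearly level with Setd2.

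**Figure D1:**
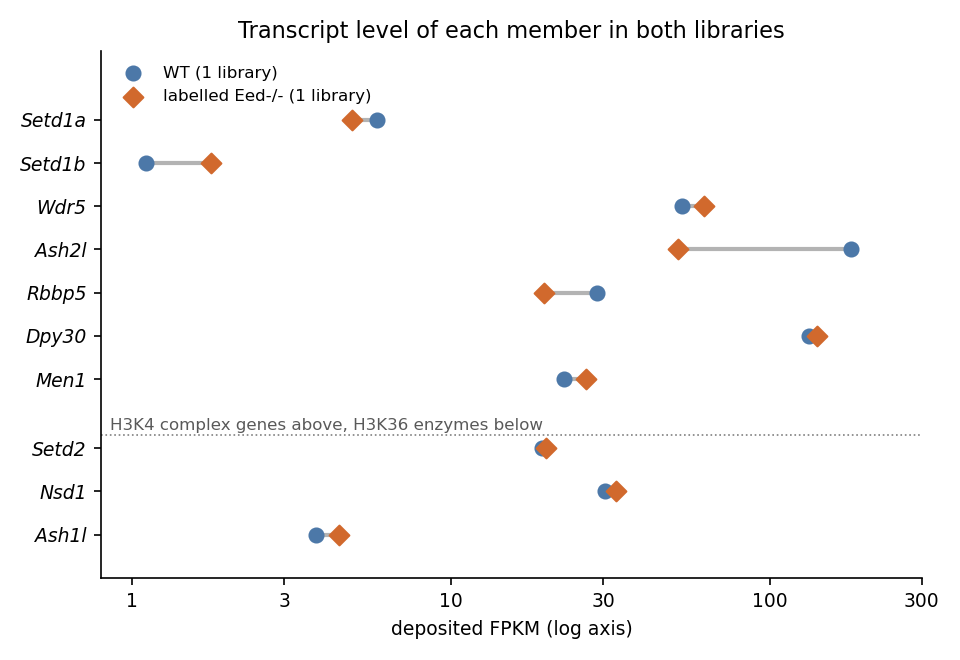
Deposited FPKM of the 10 genes on a log axis, with a circle for the WT library and a diamond for the library labelled Eed-/-, joined by a grey line. Ash2l has the longest line, from 180 in WT to 51.5, and the points of Dpy30 and Setd2 nearly coincide.

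To compare the libraries, values were quantile-normalized and a change was taken as the difference in log2(normalized FPKM + 1), library labelled Eed-/- minus WT. Changes were read for 14835 genes with a mean of at least 0.1, whose median change was 0.01, and all 10 genes were among them. Only Ash2l passed 2-fold, in the direction of lower values, where 3.98% of all tested genes stood; 0 of the 10 were 2-fold higher, against 3.8% of all genes. Among the 7068 genes with a mean of at least 5, which hold 8 of the 10, 4.26% were 2-fold lower and 3.61% 2-fold higher. At 1.5-fold the count was still 1 lower and 0 higher, against 12.4% and 12.3% of all tested genes. The number of genes past either fold is therefore near the background, and the description below is of single genes.

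Ash2l encodes the core subunit that, with RBBP5, switches on the SET domains of the COMPASS enzymes. In mm9 it spans chr8:26926663-26958166 and is read from the minus strand. Its deposited FPKM was 180 in WT, against 51.5 in the library labelled Eed-/-, which stands for about 2793 and 718 fragments on its median transcript of 2337 bases. After normalization the values were 166 and 55.8, a level 2.97-fold lower. The ratio was 0.337, with a 95% interval from counting error alone (exact Clopper-Pearson) of 0.310 to 0.366. On the log2 scale its change was -1.55, and it was -1.78 with the FPKM as deposited and -1.62 with median-ratio scaling. Of all tested genes 149, or 1.00%, had a change as low or lower. No near-identical copy of its coding sequence was found elsewhere in the genome.

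Since chromosome 8 was lower as a whole, Ash2l was set against it. The median change of the 758 tested genes on that chromosome was -0.39, and 78.9% of them were below 0. Relative to this median Ash2l had a change of -1.16, still past 2-fold, and 17 of the 758 genes, 2.24%, were as low or lower. Among the 420 more abundant genes of the chromosome, with a mean of at least 5, the median was -0.48 and 11 genes, 2.62%, reached the change of Ash2l. Of the 5 tested genes on each side of Ash2l, 9 of 10 were below 0, with a median of -0.43. The lowest of the 10 was Pomk, a kinase gene of the dystroglycan pathway that starts 146 kb away, at 7.44 in WT, against 1.36 in the library labelled Eed-/- (change -1.76). Fnta, the most abundant neighbour, was at 97.0 and 58.8 (change -0.47). Lsm1 and Bag4, which start within 62.5 kb on the other side, had changes of -0.78 and -0.61. Ash2l and Pomk were the only ones of these 11 genes past 2-fold, and they do not adjoin, as Hgsnat between them had a change of -0.22.

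**Figure D2:**
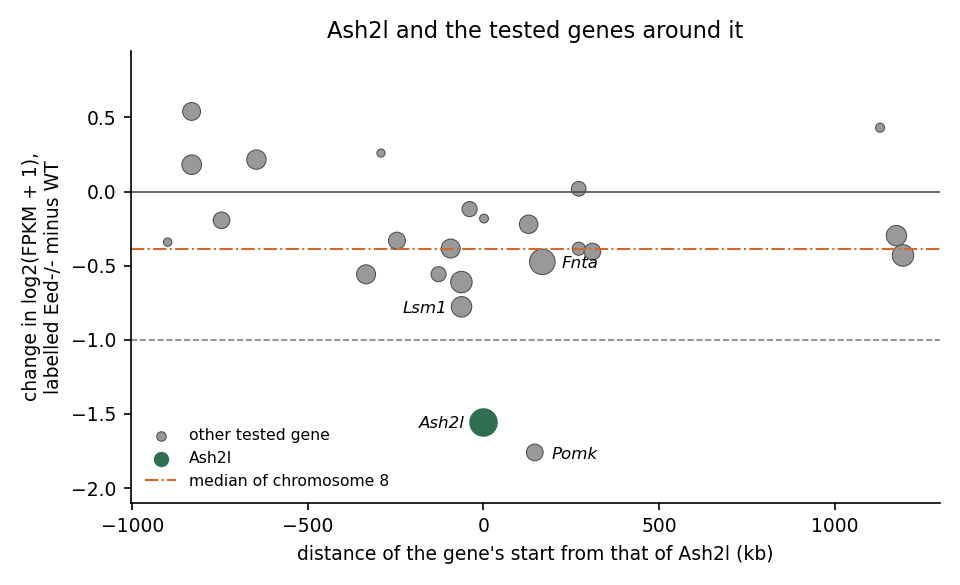
Change in log2(FPKM + 1) of the tested genes that start within 1200 kb of Ash2l, against the distance in kb from the start of Ash2l (positive toward higher coordinates); a larger point has a higher mean FPKM. Ash2l at -1.55 and Pomk at -1.76 lie below the dashed 2-fold line, and most others lie near the chromosome 8 median of -0.39.

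WDR5 is the scaffold that ties the SET enzymes to the core, and Rbbp5 encodes its direct partner, which contacts both ASH2L and the SET domain. The promoters of both genes are shown as an example of core subunits whose changes had opposite signs. They run from 250 bases before to 50 bases after the annotated start, 5′ to 3′, from RefSeq on GRCm38.p6, with every CG dinucleotide in capitals. Wdr5 is at chr2:27514897-27515196 on the plus strand and Rbbp5 at chr1:132477117-132477416 on the plus strand.
Wdr5: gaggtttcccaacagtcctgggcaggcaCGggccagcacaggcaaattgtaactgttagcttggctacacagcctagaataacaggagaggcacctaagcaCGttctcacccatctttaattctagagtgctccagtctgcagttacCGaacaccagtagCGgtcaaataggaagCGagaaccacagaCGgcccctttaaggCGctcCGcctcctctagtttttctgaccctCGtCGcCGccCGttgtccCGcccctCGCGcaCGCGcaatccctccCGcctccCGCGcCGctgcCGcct
Rbbp5: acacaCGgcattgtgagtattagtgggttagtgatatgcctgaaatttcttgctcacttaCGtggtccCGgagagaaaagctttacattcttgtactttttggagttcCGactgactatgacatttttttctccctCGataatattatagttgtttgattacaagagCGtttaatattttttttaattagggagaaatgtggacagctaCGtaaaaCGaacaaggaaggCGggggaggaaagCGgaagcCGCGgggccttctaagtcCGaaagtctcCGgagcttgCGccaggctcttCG
The letters CG, which read the same on both strands, occur 22 times in the first and 16 times in the second, against a median of 7 over 32851 promoters of the table. Of all promoters, 23.1% hold at least as many as Wdr5 and 33.0% at least as many as Rbbp5. The table also holds Setd1a with 35, Setd2 with 38, 3 starts of Men1 with 11 to 16, and 4 starts of Dpy30 with 1, 30, 34 and 39. Ash2l, Setd1b, Nsd1 and Ash1l were not matched in it.

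Wdr5 (chr2:27370677-27392055 of mm9, plus strand) was at 53.2 in WT, against 62.1 in the library labelled Eed-/-, about 683 and 714 fragments. Its change, 0.45, was the highest of the 10 genes, with a normalized ratio of 1.37 (counting interval 1.23 to 1.53). With the FPKM as deposited the change was 0.22. Its chromosome had a median of 0.07, and the 10 tested neighbours of Wdr5 a median of 0.09. Wdr5 was thus higher than its surroundings by less than 1.5-fold.

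Rbbp5 (chr1:134373944-134402242, plus strand) was at 28.7 and 19.6, about 713 and 437 fragments, with a change of -0.34 and a normalized ratio of 0.784 (interval 0.694 to 0.884). Chromosome 1 had a median change of -0.30, and 46.4% of its 801 tested genes were as low as Rbbp5 or lower. Relative to that median the change of Rbbp5 was -0.04, and the 401 more abundant genes of the chromosome had a median of -0.48. Its 10 tested neighbours had a median of 0.16, and only Tmcc2 and Mdm4 among them were below 0. A near-identical copy of the Rbbp5 coding sequence lies on chromosome 11 (95.9% identity), so its level is uncertain by the reads that match both places.

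DPY30 binds ASH2L as a dimer and raises the activity of the whole complex. Dpy30 (chr17:74698814-74723284, minus strand) was at 133 in WT, against 141 in the library labelled Eed-/-, about 588 and 559 fragments on a short transcript. The normalized change of 0.35 shrank to 0.08 with the FPKM as deposited, and its counting interval then held a ratio of 1. Of the 4 core subunits, Dpy30 was nearest to equal levels in the deposited values.

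Ratios between genes within a library do not depend on a scaling factor per library. Ash2l had 3.38 times the FPKM of Wdr5 in WT, against 0.830 times in the library labelled Eed-/-. The ratio of Rbbp5 to Wdr5 went from 0.539 to 0.316, and that of Dpy30 to Wdr5 from 2.50 to 2.27. Ash2l made up 45.6% of the summed FPKM of the 4 core subunits in WT, against 18.8% in the other library, as the sum went from 394 to 274. Without Ash2l, the other 6 H3K4 genes summed to 244 in WT, against 256 in the library labelled Eed-/-.

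**Figure D3:**
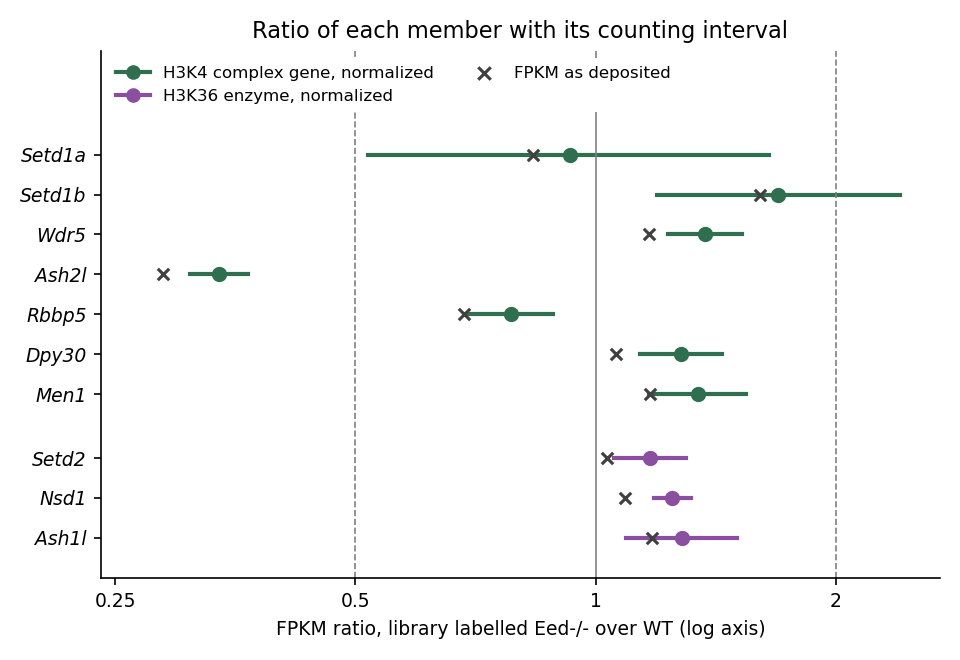
Ratio of FPKM, library labelled Eed-/- over WT, on a log axis for the 10 genes; circles are quantile-normalized ratios with 95% counting intervals, crosses are ratios of the FPKM as deposited, and dashed lines mark 2-fold. The circle of Ash2l alone lies beyond a dashed line, and the crosses lie to the left of the circles for all 10 genes.

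SETD1A and SETD1B are the catalytic subunits of the complexes that make most promoter H3K4 trimethylation. Setd1a (chr7:134920184-134943636, plus strand) was at 5.85 in WT, against 4.88 in the library labelled Eed-/-, with a change of -0.09. Its fragment number depends on the transcript taken, about 31 and 23 on the median length of 916 bases and 266 and 199 on the longest of 6487 bases. Under either length the counting interval held a ratio of 1 (0.770 to 1.12 on the longest), so a difference in Setd1a was not detectable at this depth. It overlaps Hsd3b7 on the same strand, which was at 1.04 and 0.487.

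Setd1b (chr5:123592202-123617444, plus strand) was the least abundant of the 10, at 1.10 in WT, against 1.77 in the library labelled Eed-/-, about 58 and 83 fragments. Its normalized ratio of 1.69 was the highest of the 10 genes, with a counting interval of 1.19 to 2.41, whereas the change on the log2(FPKM + 1) scale, 0.44, understates a ratio at this level. With a pseudocount of 0.1 or 0.01, Setd1b joined Ash2l past 1.5-fold, but the share of all genes past it was not taken there. Setd1a had 5.31 times the FPKM of Setd1b in WT, against 2.76 times in the library labelled Eed-/-. A long non-coding RNA overlaps Setd1b on the opposite strand, and whether the quantification used strand is not given in the sources used here. Both enzymes together stayed below any core subunit in both libraries.

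Menin, the product of Men1, belongs to the complexes of KMT2A and KMT2B and helps bring them to promoters. Men1 (chr19:6334979-6340891, plus strand) was at 22.6 and 26.5, about 402 and 421 fragments, with a change of 0.41 and a normalized ratio of 1.34 (interval 1.17 to 1.54). In deposited values the change was 0.22. Its FPKM was 0.425 times that of Wdr5 in WT, against 0.426 times in the library labelled Eed-/-.

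The 3 H3K36 enzymes had changes within 0.09 of each other. Setd2 (chr9:110435101-110521137, plus strand), the enzyme of H3K36 trimethylation that travels with RNA polymerase II, was at 19.3 and 19.9, with a change of 0.22. Nsd1 (chr13:55311143-55419686, plus strand), an H3K36 dimethylating enzyme, was at 30.4 and 33.0, with a change of 0.31. On a transcript of 12475 bases these values stand for about 2691 and 2624 fragments, so its ratio of 1.25 has a counting interval of only 1.18 to 1.32. Ash1l (chr3:88769734-88883295, plus strand), the Trithorax group dimethylating enzyme, was at 3.79 and 4.46, with a change of 0.29; it overlaps Gon4l on the same strand, at 10.3 and 8.67. As deposited the changes were 0.05 for Setd2, 0.12 for Nsd1 and 0.19 for Ash1l. The ratio of Nsd1 to Setd2 was 1.57 in WT, against 1.66 in the library labelled Eed-/-.

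As classes, the 7 H3K4 complex genes had a median change of 0.35 (range -1.55 to 0.45) and the 3 H3K36 enzymes one of 0.29 (range 0.22 to 0.31). The medians differed by 0.06, a gap far smaller than the spread of 2.00 within the H3K4 genes, and it was -0.03 with the FPKM as deposited and with median-ratio scaling. Without Ash2l, the H3K4 median was 0.38. The H3K4 genes thus lay in both directions, with Setd1a, Ash2l and Rbbp5 below 0 and the other 7 genes above it. Apart from Setd1a, every counting interval of a normalized ratio left out 1, with 7 above and 2 below. Taking FPKM without normalization moved the median of all genes to -0.09, and the intervals of Dpy30 and Setd2 held 1 as well. These intervals cover counting error only, not the spread between cultures. The share of all tested genes whose interval left out 1 was not taken, so these counts have no background beside them.

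**Figure D4:**
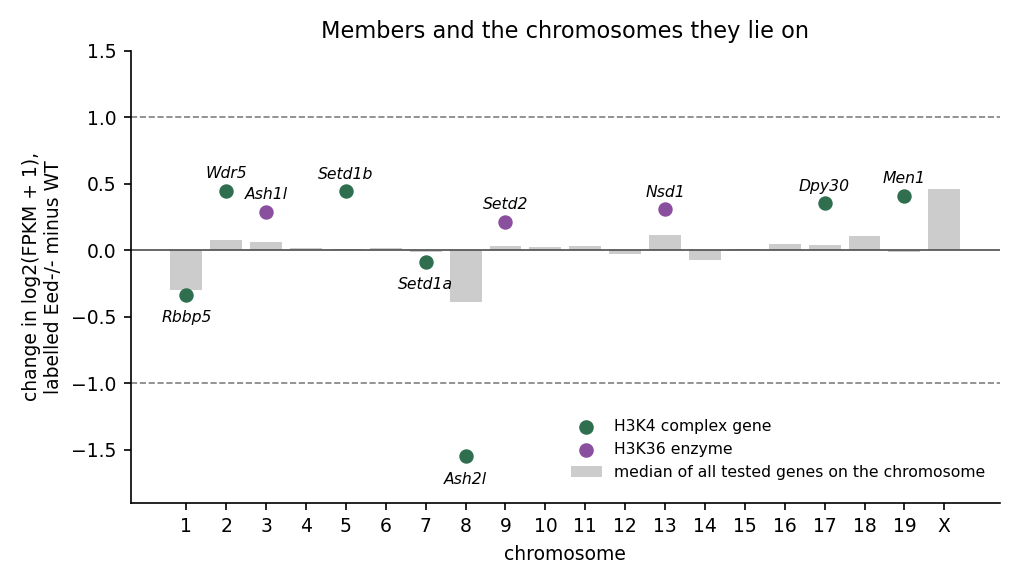
Change in log2(FPKM + 1) of the 10 genes, placed on their chromosomes, over grey bars for the median change of all tested genes on each chromosome but Y. Dashed lines mark 2-fold. Rbbp5 at -0.34 lies at the end of the chromosome 1 bar (-0.30), and Ash2l at -1.55 lies well below that of chromosome 8 (-0.39).

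Other genes of the same pathways were then looked up from lists of 53 genes. Of these, 52 had a value, 1 was 2-fold higher and 1 was 2-fold lower on the log2(FPKM + 1) scale, 1.92% each. With 1 gene each way, this cannot be told apart from the background shares given above. Their median change was -0.02, with 25 genes above 0 and 27 below.

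The other 7 H3K4 methyltransferases had a median of 0.07. Kmt2c, which monomethylates H3K4 at enhancers, was the one past 2-fold, at 4.56 in WT, against 11.5 in the library labelled Eed-/- (change 1.30, ratio 2.80, interval 2.37 to 3.31). Its close relative Kmt2d was at 4.20 and 4.09 (change 0.07), so Kmt2c had 1.09 times the FPKM of Kmt2d in WT, against 2.82 times in the other library. Of the menin-bound enzymes, Kmt2a was at 4.44 and 3.25 (change -0.26) and Kmt2b at 6.48 and 6.78 (change 0.21). Setd7, which monomethylates H3K4 and many other proteins, had a change of -0.32. Smyd3, a SET enzyme on chromosome 1, had one of -0.67, and -0.37 relative to the chromosome. Prdm9, the meiotic H3K4 methyltransferase, was at 0.0422 and 0.189, about 1 and 3 fragments, with a change of 0.18.

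Of 10 partners of the H3K4 complexes 8 were above 0, with a median of 0.20. Among SETD1 partners, Cxxc1, which binds unmethylated CpG, was at 20.6 and 13.5 (change -0.42), and Wdr82, which ties the complex to RNA polymerase II, at 38.0 and 35.2 (change 0.07). Bod1l, linked to the SETD1B complex, was at 10.9 and 18.7 (change 0.90). Hcfc1, the host cell factor, was at 19.1 and 28.8 (change 0.75), and Hcfc2 at 1.44 and 1.47 (change 0.05). Psip1, which tethers menin to chromatin, was at 93.8 and 78.2 (change -0.03) and has a near-identical copy elsewhere. Of the genes particular to the KMT2C and KMT2D complexes, Ncoa6 had a change of 0.80, Kdm6a, the H3K27 demethylase, one of 0.52, Pagr1a one of 0.26 and Paxip1 one of 0.13. Hcfc1 and Kdm6a lie on chromosome X, whose median change was 0.46, and relative to it they were at 0.29 and 0.06.

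The other H3K36 or related SET enzymes had a median of -0.24, with 5 of 6 below 0. Nsd2, listed as Whsc1, had a change of -0.14, and Nsd3, listed as Whsc1l1, one of -0.33. Nsd3 starts 246 kb from Ash2l on chromosome 8, and relative to the chromosome it was at 0.06. Smyd2, on chromosome 1, had a change of -0.51 (-0.21 relative to the chromosome) and Setd5 one of -0.11. Setd3, a methyltransferase of actin with a near-identical copy elsewhere, was at 20.6 and 10.3 (change -0.78). Setmar, a SET domain fused to a transposase, was at 1.25 and 2.63 (change 0.74), about 13 and 24 fragments.

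Among the remaining lists, the 10 genes of H2B ubiquitination and the PAF complex, which act upstream of SETD1 enzymes and SETD2, had a median change of 0.02, with 5 above and 5 below 0. The largest positive change was that of Ube2a, a ubiquitin-conjugating enzyme on chromosome X, from 12.8 to 23.1 (change 0.97, and 0.51 relative to the chromosome). The 4 partners of H3K36 enzymes with a value, of 5 looked up, had a median of 0.10, and Supt6h was the one without a value. Iws1, which helps bring SETD2 to the polymerase, was at 12.8 and 16.0 (change 0.45). The 8 readers of H3K4 methylation had a median of -0.12. The lowest was Ing5 on chromosome 1, at 38.2 and 18.4 (change -0.83, and -0.54 relative to the chromosome). The 7 readers of H3K36 methylation had a median of -0.11, and the lowest was Phf19, at 13.7 and 2.61 (change -1.92, ratio 0.208, interval 0.155 to 0.274). PHF19 is a Polycomb-like protein that binds methylated H3K36 through its Tudor domain and associates with PRC2. The other Polycomb-like genes of that list were not lower. Mtf2 was at 46.9 and 54.6 (change 0.43), and Phf1 at 0.674 and 0.755 (change 0.09), about 11 fragments in each library. Lists and genes near 0 changed sign with the FPKM as deposited, where the median was -0.03 for the other H3K4 methyltransferases, -0.15 for H2B ubiquitination and PAF genes and -0.08 for partners of H3K36 enzymes. Kmt2d then had a change of -0.03 and Wdr82 one of -0.11, while 7 of 10 partners of the H3K4 complexes were still above 0. Among the pathway genes, the 10 included, Kmt2c, Ash2l and Phf19 were those past 2-fold on the log2(FPKM + 1) scale. Without the pseudocount, normalized ratios also passed 2 for Ube2a (2.03, interval 1.56 to 2.67), Setmar (2.22, interval 1.09 to 4.75) and Prdm9 (3.89, interval 0.312 to 204). The share of all tested genes with such ratios past 2 was not taken.

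**Figure D5:**
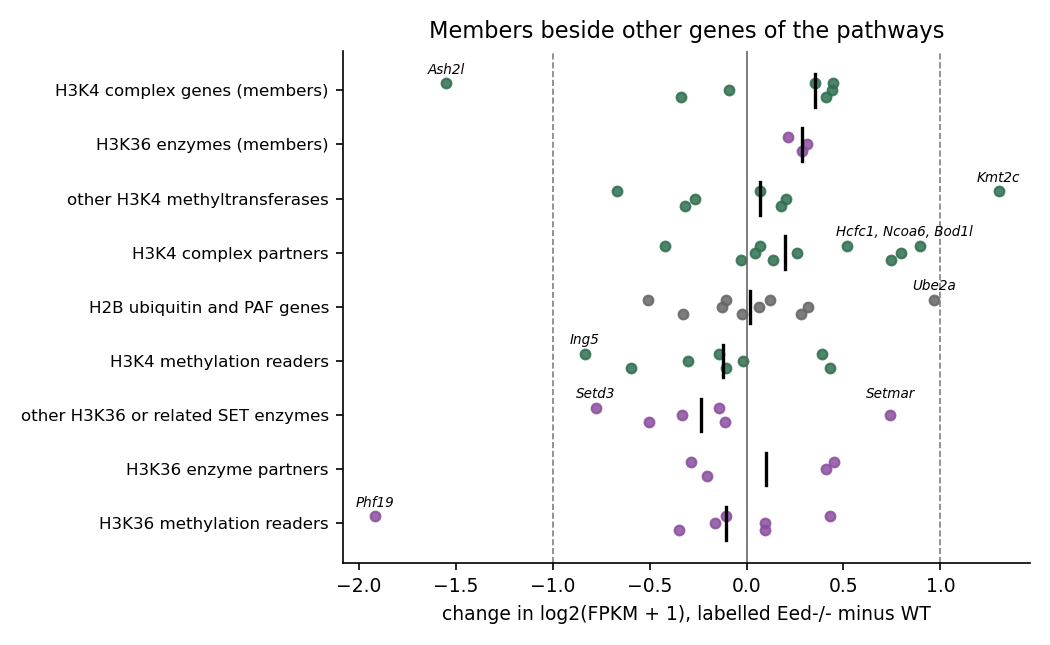
Change in log2(FPKM + 1) of the 10 genes and of 52 other genes of the pathways, 1 point a gene, with a black bar at the median of each list and dashed lines at 2-fold. Kmt2c (1.30), Ash2l (-1.55) and Phf19 (-1.92) lie outside the dashed lines.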

How the data were processed

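RNA-seq of WT and Eed-/- mESCs was analysed, with 1 library each. Per the labels, ribosomal RNA was removed and libraries were made by a dUTP protocol. The deposited values are FPKM of gene symbols, which the authors computed with TopHat and Cufflinks on mm9; the submitters' processing notes name TopHat2 2.0.11 and Cufflinks 2.2.1. The annotation and the Cufflinks options are not given in the sources used here. The other assays were not analysed here.

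Each library has 24525 rows, and repeated rows of 268 symbols were added up. Libraries were quantile-normalized, log2(FPKM + 1) was compared, and genes with a mean of at least 0.1 were compared, with thresholds of 2-fold and 1.5-fold. The members and lists were chosen with earlier results of these data known. The text names all 10 members, every gene of 3 related lists, the 2 largest changes each way in the other pathway lists, Eed and the nearest genes in level. Pomk, Fnta, Lsm1, Bag4 and Hgsnat beside Ash2l, and Tmcc2 and Mdm4 beside Rbbp5, were named after their values were seen. The same holds for Mtf2 and Phf1 beside Phf19.

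Positions and lengths are those of GENCODE vM1 (NCBIM37, which is mm9). Of the symbols, 20822 were matched directly and 22064 directly or by a RefSeq synonym on the same chromosome. Depth was recovered from steps of low FPKM in single-transcript genes of 1000 bases or more, less 180 bases. Within 0.1 of a whole fragment were 80.8% of 722 low values in WT and 82.2% of 706 in the other library. For genes with several transcripts the fragment number is approximate. Intervals at 95% (Clopper-Pearson) cover counting error only. Coding sequences were aligned to the genome with minimap2 2.31, and a copy covers at least 80% at 95% identity. The tools were matplotlib 3.10.9, scipy 1.17.1, numpy 2.4.6 and pandas 2.3.3 under Python 3.11.15. Alternatives were FPKM as deposited, median-ratio scaling, pseudocounts of 0.1 and 0.01, normalization over protein-coding genes, no filter or a mean of at least 1, repeated symbols left out, and changes relative to the chromosome median.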

Additional observations from a re-analysis of the deposited data

How the results depend on the processing

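Taking FPKM without normalization gave median changes of 0.083 for the H3K4 complex genes and 0.12 for the H3K36 enzymes, against 0.35 and 0.29. With pseudocounts of 0.1 and 0.01, 2 of the 10 genes passed 1.5-fold, Ash2l and Setd1b, in place of 1. The share of all tested genes past 1.5-fold was not taken at these pseudocounts, so this count has no background beside it. The count past 2-fold was 1 under each alternative. All 10 genes kept the sign of their change under each of the 9 alternatives, and 81 of 90 single values stayed within the counting half-width. Dropping the filter, or asking for a mean of at least 1, could not move a single change, so agreement there was fixed in advance. The 9 values that moved by more came from 2 alternatives. With FPKM as deposited they were those of Ash2l, Dpy30, Nsd1, Rbbp5, Setd2 and Wdr5. Relative to the chromosome median they were those of Ash2l, Nsd1 and Rbbp5. The gap between the class medians ran from -0.03 to 0.12, and leaving out Ash2l or genes with a near-identical copy, chosen after seeing the data, gave 0.09. No paired analysis was possible because each genotype has 1 RNA-seq library. The spread between cultures is unknown, and the genotype cannot be told apart from other differences between the 2 cultures.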

Other observations

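The genes nearest to Wdr5 and Ash2l in level over both libraries were looked up, by Euclidean distance in normalized log2(FPKM + 1). For Wdr5 they were Usp5, a deubiquitinase (52.6 in WT, against 61.3 in the library labelled Eed-/-), Atp5f1, a subunit of ATP synthase with a near-identical copy (54.0 and 61.1), and Ccng1, a cyclin (51.8 and 62.0), and 19 genes lay within a distance of 0.1. No gene lay that close to Ash2l, which was at percentile 97.8 of level in WT and 1.00 of change, where few genes lie. The nearest were Mt1, a metallothionein (225 and 59.2), Cirh1a, a gene of ribosome biogenesis (149 and 63.6), and Rpl13, a ribosomal protein gene with 8 near-identical copies (146 and 64.1), at distances of 0.40, 0.41 and 0.43. All 3 lie on chromosome 8, as Ash2l does. That chromosome holds 758 of the 14835 tested genes, and its genes were lower as a group. The 3 genes were picked for values close to those of Ash2l. The share of chromosome 8 among all genes as abundant and as low was not taken.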
